A study of Sus scrofa with 12 samples.

Results

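A low-fiber diet with N-carbamylglutamate (NCG) was compared with a low-fiber diet without it in the endometrium of sows. The comparison rests on 6 of the 12 libraries of the series, chosen by their column names and not by any measured value: 3 libraries from low fiber with NCG, called L + N, and 3 from low fiber without NCG, called L − N. In the study, sows received a low-fiber or a high-fiber diet, each with or without NCG, from breeding through a gestation of 114 days. Polyadenylated RNA of the endometrium was then sequenced with paired-end reads, with 3 libraries for each of the 4 diets. The study examines how the 2 dietary factors act on the uterus and on reproduction.

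The diet of L − N held 3.73% crude fiber and no NCG, and the diet of L + N held 3.73% crude fiber and 0.05% NCG. By the study's list of ingredients, L − N held zeolite powder in the place and amount of NCG. The measured calcium was also somewhat higher in the diet of L + N. The high-fiber diets, H − N and H + N, held 7.46% crude fiber with 0% and 0.05% NCG and enter here only where the effect of NCG is set beside that on low fiber. The animals were crossbred Landrace × Yorkshire sows, of which some were euthanised after the feeding period. Which of them were sequenced is not given. The endometrium is a mixture of cell types, so in these libraries fewer cells of a type and less RNA per cell cannot be told apart.

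NCG is a stable analog of N-acetylglutamate, the activator of carbamoyl phosphate synthetase (encoded by CPS1), which passes ammonia into the synthesis of citrulline and arginine. Arginine is in turn the substrate of the nitric oxide synthases, the source of ornithine for polyamines, and a signal to the growth kinase complex mTORC1. In the pregnant pig the endometrium, made of luminal and glandular epithelium, stroma, vessels and leukocytes, lies against a placenta that does not invade it.

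The libraries of L − N held 15797001, 16916495 and 15828950 counted reads, and those of L + N held 19309724, 16619226 and 14701681. Below, a level is a TMM-normalised count scaled to the library's total (CPM), and the 3 values of a group are given in the order of replicates 1, 2 and 3, which are only labels. A log2 fold change (log2 FC) is that of L + N over L − N and is given ± its SE. Levels of single genes are compared with each other only as FPKM, which divides by gene length.

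The markers of the labelled tissue were present in both groups. EPCAM, an adhesion protein of epithelium, had 335, 265 and 187 in L − N and 236, 269 and 207 CPM in L + N. KRT8, the most abundant gene of the epithelial marker list, had a mean of 156 ± 49.3 FPKM in L − N and 224 ± 19.6 FPKM in L + N (SD, n = 3 a group). HOXA10, a uterine homeobox factor of the stroma, had 76.1, 100.2 and 94.1 in L − N and 230.3, 225 and 363 CPM in L + N. EPCAM overlapped between groups, and HOXA10 was higher in all of L + N. Some single markers of other cells were at or near 0, although their lists were not. PAG6, CDX2 and CYP19A1 of the trophoblast list and CPA3 of the mast cell list had no count in any of the 6 libraries, GCM1 of the trophoblast had at most 4 counts, and ADIPOQ of fat cells at most 7. Sums of a list run over all its genes in the table, tested or not. The trophoblast list summed to 136, 203 and 168 in L − N and 158, 157 and 181 CPM in L + N, with SLC2A3 most abundant. The mast cell and eosinophil list summed to 566, 269 and 401 in L − N and 303, 384 and 309.6 CPM in L + N, with KIT most abundant. The gene named PAG1 in the table is annotated there as a phosphoprotein membrane anchor and not as a pregnancy-associated glycoprotein.

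Replicate 1 of L − N stood apart from its group. Across genes, its levels had Spearman correlations of 0.952 and 0.966 with replicates 2 and 3, which had 0.983 with each other, and the 3 pairs of L + N had 0.983 to 0.985. In a principal component analysis of the 6 libraries, component 1 (42.9% of the variance) placed L − N at −10.65, −47.03 and −51.88 and L + N at 29.87, 41.73 and 37.97. Component 2 (26.9%) separated L − N replicate 1, at 63.55, from L − N replicates 2 and 3, at −37.46 and 1.62. The same library was high in smooth muscle markers, such as MYH11, the myosin heavy chain of smooth muscle, at 1469, 367 and 679 in L − N and 439.7, 482 and 406 CPM in L + N. It was low in macrophage markers, such as C1QA, a chain of complement C1q, at 198, 544 and 542 in L − N and 261, 238 and 173 CPM in L + N. Many results below are therefore given with and without it.

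On low fiber with NCG, 97 of 294 genes tested in lists of DNA replication, DNA repair and cell division were called higher. Called lower were 7 of 119 lysosomal genes, 2 of 15 macrophage markers and 2 of 14 smooth muscle markers. Apart from the annotated lysosome pathway, these lists were chosen with earlier results of these data known. Of 15351 genes tested, 613 (3.99%) were called in edgeR's quasi-likelihood test, that is, had a Benjamini-Hochberg adjusted p under 0.05 over all genes and a log2 FC beyond 1. They divided into 510 genes higher in L + N (3.32% of genes tested) and 103 genes lower (0.671%), with median log2 fold changes of 1.38 and −1.38 against −0.02 over all genes. Beyond a fold of 4 lay 76 of the higher and 19 of the lower genes. With no threshold on fold change, 1474 genes had an adjusted p under 0.05, 916 higher and 558 lower. The 6 libraries did not overlap between groups for 5414 genes (35.3% of genes tested), among them 601 of the 613 called genes.

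These counts depended on single libraries. Without L − N replicate 1, 904 genes were called, 577 higher and 327 lower, and 469 of them were among the 613. Leaving out L − N replicate 2 gave 544 genes, 478 higher and 66 lower. Leaving out L − N replicate 3 gave 143 genes, 122 higher and 21 lower. With L + N replicate 1, 2 or 3 left out the counts were 418 (374 higher, 44 lower), 185 (160 higher, 25 lower) and 385 (353 higher, 32 lower). In the text below, a bracketed range after the median of a list is its range over these 6 fits. Higher genes outnumbered lower ones in each of them, with a share from 63.8% with L − N replicate 1 left out to 91.7% for L + N replicate 3. With no threshold on fold change, the fit without L − N replicate 1 had more lower genes than higher ones. At an adjusted p under 0.05 it had 937 higher and 1030 lower. Of 88 called genes that were named, 16 lost the call when edgeR was run on the 6 libraries alone, 14 in limma-voom and 13 with length offsets, which are described below.

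Many of the higher genes stood in lists of cell division, which were chosen with earlier results of these data known. The 7 lists of DNA replication, DNA repair, the kinetochore, condensin and cohesin, kinesins, the centrosome and the cyclins held 294 distinct genes tested, of which edgeR called 97 higher and 0 lower, against 510 higher and 103 lower of all 15351. Limma-voom called 105 of them higher and DESeq2 112, and each called 0 lower. Their median log2 fold change was 0.85, against −0.02 over all genes, and 263 of the 294 were positive. The summed level of the 294 genes was 6485, 7822 and 6609.6 in L − N and 9516, 10563 and 10529 CPM in L + N. Every library of L + N was thus above every library of L − N. When 1 library was left out, the number called higher was 78, 121 or 27 (L − N replicates 1, 2 or 3) and 80, 43 or 63 (L + N replicates 1, 2 or 3), with 0 called lower by edgeR in each fit and a median between 0.74 and 0.97. The other lists together held 622 distinct genes tested, with 7 called higher, 17 lower and a median of −0.13. Because of how the lists were chosen, their shares are a description and not independent support. The pathways of the deposited annotation moved less. KEGG cell cycle had 15 of 118 genes called higher and a median of 0.17, and KEGG DNA replication 2 of 34 and 0.21.

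**Figure D1:**
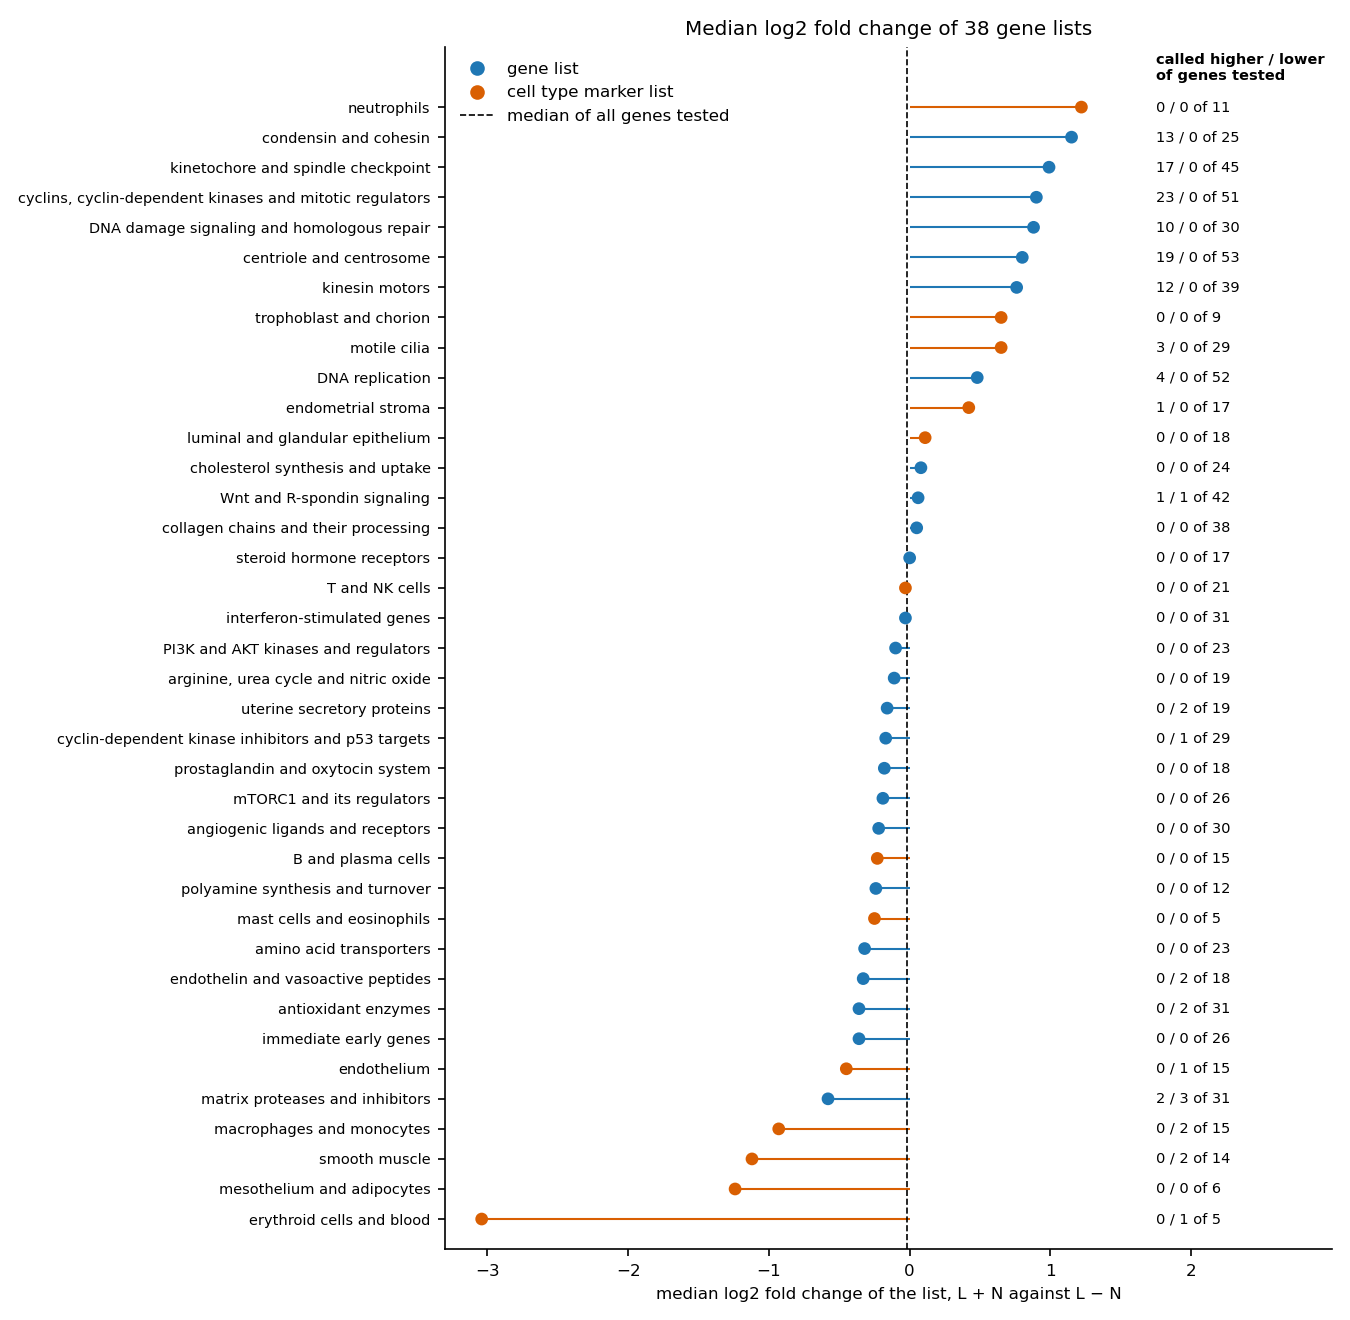
Median log2 fold change of L + N against L − N in 38 gene lists (x axis, log2), with the number of genes called higher and lower of those tested printed at the right. Blue points are lists of pathways and complexes, orange points are lists of cell type markers, and the dashed line is the median of all genes tested (−0.02). The division lists sit between 0.48 and 1.15, and the macrophage and smooth muscle lists at −0.93 and −1.12.

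Of 52 genes tested in the list of DNA replication, 4 were called higher (7.69%, against 3.32% of all genes) and 0 lower, with a median of 0.48 and 45 positive. TOP2A, the topoisomerase that untangles sister chromatids (gene 396917, chromosome 12, 22001300 to 22028452), had 12.3, 32.2 and 10.5 in L − N and 92.9, 127 and 136 CPM in L + N. All 3 libraries of L + N were above all 3 of L − N (log2 FC 2.70 ± 0.39, adjusted p = 0.00818). POLE2, a subunit of the leading-strand polymerase, had 1.78, 4.14 and 2.35 in L − N and 6.07, 6.93 and 8.31 CPM in L + N (log2 FC 1.36 ± 0.35, adjusted p = 0.0356). L − N replicate 2 was highest in its group in both genes. The others called were TICRR, which helps to fire replication origins, at log2 FC 1.33, and CLSPN, an adaptor of the replication checkpoint, at 1.12. The call of TOP2A held without any 1 of the 6 libraries. POLE2, TICRR and CLSPN lost their calls without any 1 of the 5 libraries other than L − N replicate 2 (adjusted p 0.0601 to 0.154). CLSPN overlaps AGO4 in the annotation, and whether reads were counted by strand is not stated. The count of 4 was 1 with L − N replicate 1 left out, 11 with L − N replicate 2 left out, 2 with L − N replicate 3 or L + N replicate 1 left out, and 1 with L + N replicate 2 or 3 left out.

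DNA damage signaling and homologous repair had 10 of 30 genes called higher and 0 lower, with a median of 0.88 and 29 genes positive. ATM, the kinase that senses double-strand breaks (gene 100101922, chromosome 9, 36620656 to 36759555), had 42.02, 45.2 and 43.2 in L − N and 94.5, 102 and 84.4 CPM in L + N. The groups were apart by more than the range of either one (log2 FC 1.11 ± 0.14, adjusted p = 0.00818). ATR, the kinase that responds to stalled forks (gene 100516227, chromosome 13, 83175515 to 83289986), had 16.7, 18.6 and 14.2 in L − N and 34.7, 50.6 and 48.6 CPM in L + N (log2 FC 1.44 ± 0.20, adjusted p = 0.00818). BRCA1, a scaffold of homologous recombination (gene 100049662, chromosome 12, 19788087 to 19854515), had 11.1, 14.7 and 10.8 in L − N and 26.5, 35.5 and 37.9 CPM in L + N (log2 FC 1.45 ± 0.19, adjusted p = 0.00818). L + N was higher in every library for each of these genes. The other 7, RAD50, BLM, CHEK1, FANCM, RAD54B, FANCA and BRIP1, had log2 fold changes from 1.27 (FANCA) to 2.11 (FANCM). The calls of ATM, ATR, BRCA1 and FANCM held without any 1 of the 6 libraries. The other 6 lost their calls without L − N replicate 3 or L + N replicate 2. BRCA1 overlaps NBR1. The count of 10 was 16 with L − N replicate 2 left out, 4 with L − N replicate 3 or L + N replicate 2 left out, and 6 with L + N replicate 3 left out.

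The kinetochore and its checkpoint had 17 of 45 genes called higher and 0 lower, with a median of 0.99. CENPF, a large kinetochore protein of the G2 and M phases (gene 100521032, chromosome 9, 128948386 to 129012241), had 4.33, 13.5 and 4.37 in L − N and 29.02, 46.2 and 40.4 CPM in L + N. L − N replicate 2 was highest in its group and still below each L + N library (log2 FC 2.37 ± 0.39, adjusted p = 0.00830). SGO2, a shugoshin that guards centromeric cohesion (gene 100522763, chromosome 15, 104099378 to 104150723), had 1.72, 2.63 and 1.21 in L − N and 7.96, 15.1 and 10.5 CPM in L + N (log2 FC 2.58 ± 0.35, adjusted p = 0.00818). The other 15 called genes, among them the checkpoint kinase TTK, NDC80, BUB1B and CENPA, had log2 fold changes from 1.03 (SPC25) to 2.65 (CENPE). The calls of CENPF, SGO2 and CENPA held without any 1 of the 6 libraries. TTK, NDC80 and BUB1B lost their calls without L − N replicate 3 (adjusted p 0.0542 to 0.0552). The count of 17 was 4 with L − N replicate 3 left out and 7 with L + N replicate 2 left out.

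Condensin and cohesin, the rings that compact and hold chromosomes, had the largest share called among these lists, 13 of 25 higher and 0 lower, with a median of 1.15 and all 25 positive. SMC4, the condensin ATPase (gene 100152361, chromosome 13, 100078149 to 100120907), had 12.3, 17.1 and 10.1 in L − N and 43.5, 63.2 and 52.9 CPM in L + N (log2 FC 2.01 ± 0.27, adjusted p = 0.00818). Its partner SMC2 had 7.39, 17.995 and 10.3 in L − N and 37.03, 48.4 and 47.6 CPM in L + N (log2 FC 1.89 ± 0.33, adjusted p = 0.00965). In both genes the lowest L + N library was above the highest L − N library. SMC3, of the cohesin ring, had 35.1, 46.7 and 40.9 in L − N and 90.1, 127 and 96.99 CPM in L + N (log2 FC 1.35 ± 0.22, adjusted p = 0.00825). The groups were separate. The remaining 10 called genes, SMC5, NIPBL and PDS5B among them, had log2 fold changes from 1.03 (ESCO1) to 2.08 (SMC1B). SMC5, though in the list, is of a related complex and not of condensin or cohesin. The calls of SMC4, SMC3, SMC5 and PDS5B held without any 1 of the 6 libraries. SMC2 lost the call without L − N replicate 3 (adjusted p = 0.0526). NIPBL lost the call without L − N replicate 3 or L + N replicate 2 (adjusted p 0.0531 to 0.0555). SMC4 overlaps TRIM59. The count of 13 was 5 with L − N replicate 3 left out and 7 with L + N replicate 2 left out.

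Kinesin motors had 12 of 39 genes called higher and 0 lower, with a median of 0.76. KIF11, which pushes spindle poles apart (gene 100526080, chromosome 14, 104125839 to 104177381), had 3.12, 9.47 and 3.90 in L − N and 30.2, 38.4 and 32.4 CPM in L + N. The lowest library of L + N was above 3 times the highest of L − N (log2 FC 2.61 ± 0.40, adjusted p = 0.00818). KIF3A, a motor of transport in cilia and not of the spindle, had 21.9, 26.9 and 25.1 in L − N and 64.3, 74.8 and 66.1 CPM in L + N (log2 FC 1.47 ± 0.21, adjusted p = 0.00818). In both the groups did not overlap. The 10 others called, KIF14, KIF15 and KIF23 among them, had log2 fold changes from 1.15 (KIF21A) to 2.45 (KIF15). The calls of KIF11, KIF15, KIF3A and KIF23 held without any 1 of the 6 libraries. KIF14 lost the call without L − N replicate 3 (adjusted p = 0.0543). KIF3A overlaps RAD50, IL4 and IL13. The count of 12 was 4 with L − N replicate 3 left out, 5 with L + N replicate 2 left out and 7 with L + N replicate 3 left out.

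Centriole and centrosome genes had 19 of 53 called higher and 0 lower, with a median of 0.80 and 50 positive. CEP135, a protein of the centriole's core (gene 100627819, chromosome 8, 55250902 to 55323396), had 10.3, 12.4 and 12.5 in L − N and 34.8, 41.7 and 36.3 CPM in L + N. The spread within each group was small beside the step between them (log2 FC 1.68 ± 0.18, adjusted p = 0.00818). PCM1, the scaffold of centriolar satellites, had 44.6, 51.9 and 53.5 in L − N and 121, 165 and 119 CPM in L + N (log2 FC 1.43 ± 0.20, adjusted p = 0.00818). Levels were higher in all of L + N. The other 17, CCP110, HAUS6 and CEP162 among them, had log2 fold changes from 1.01 (CNTRL) to 2.03 (CEP290). The calls of CEP135, PCM1, CCP110 and CEP162 held without any 1 of the 6 libraries. HAUS6 lost the call without L − N replicate 1 (log2 FC 0.96). The count of 19 was 7 with L − N replicate 3 left out and 11 with L + N replicate 2 left out.

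Cyclins, their kinases and mitotic regulators had 23 of 51 called higher and 0 lower, with a median of 0.90. MKI67, the antigen Ki-67 that coats mitotic chromosomes and marks cycling cells (gene 102164100, chromosome 14, 137266622 to 137296312), had 30.8, 58.2 and 18.4 in L − N and 100.3, 91.2 and 138 CPM in L + N. Each L + N library was above each L − N library, and L − N replicate 2 was the highest of its group (log2 FC 1.61 ± 0.34, adjusted p = 0.0180). CCNA2, the cyclin of S and G2 phases, had 6.43, 12.3 and 6.78 in L − N and 18.9, 23.7 and 26.9 CPM in L + N (log2 FC 1.45 ± 0.26, adjusted p = 0.0110). It was higher in every L + N library. The other 21, which included the mitotic cyclins CCNB1 and CCNB2 and the kinases CDK1, PLK1, AURKA and PBK, had log2 fold changes from 1.05 (RACGAP1) to 1.90 (MELK). The G1 cyclin CCND1 did not pass (log2 FC 0.01 ± 0.22, adjusted p = 0.976). The call of PBK held without any 1 of the 6 libraries. CCNA2 lost the call without L − N replicate 3 (adjusted p = 0.0556). MKI67 lost the call without L − N replicate 3 or L + N replicate 3 (adjusted p 0.0538 to 0.0554). CCNB1, CCNB2, CDK1, PLK1 and AURKA lost theirs without L − N replicate 3 or L + N replicate 2 or 3, and some also in other fits. CCNA2 overlaps EXOSC9. The count of 23 was 1 with L − N replicate 3 left out, 8 with L + N replicate 2 left out and 10 with L + N replicate 3 left out.

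Checkpoint genes that can halt the cycle, such as ATM, ATR, CHEK1 and BUB1B, were among the higher genes above. The list of cycle inhibitors had no gene called higher. Of 29 tested inhibitors of cyclin-dependent kinases and targets of p53, 0 were called higher and 1 lower by edgeR, with a median of −0.17. GADD45A, which responds to DNA damage and binds CDK1, had 265, 432 and 528 in L − N and 144, 109 and 148 CPM in L + N. All of L + N was below all of L − N (log2 FC −1.61 ± 0.31, adjusted p = 0.0126). The inhibitor CDKN1A had 52.3, 98.9 and 59.8 in L − N and 47.8, 53.97 and 43.1 CPM in L + N, with the 2 groups overlapping (log2 FC −0.54 ± 0.23, adjusted p = 0.147). GADD45A lost the call without L − N replicate 3 or L + N replicate 2 (adjusted p 0.0564 to 0.0566).

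**Figure D2:**
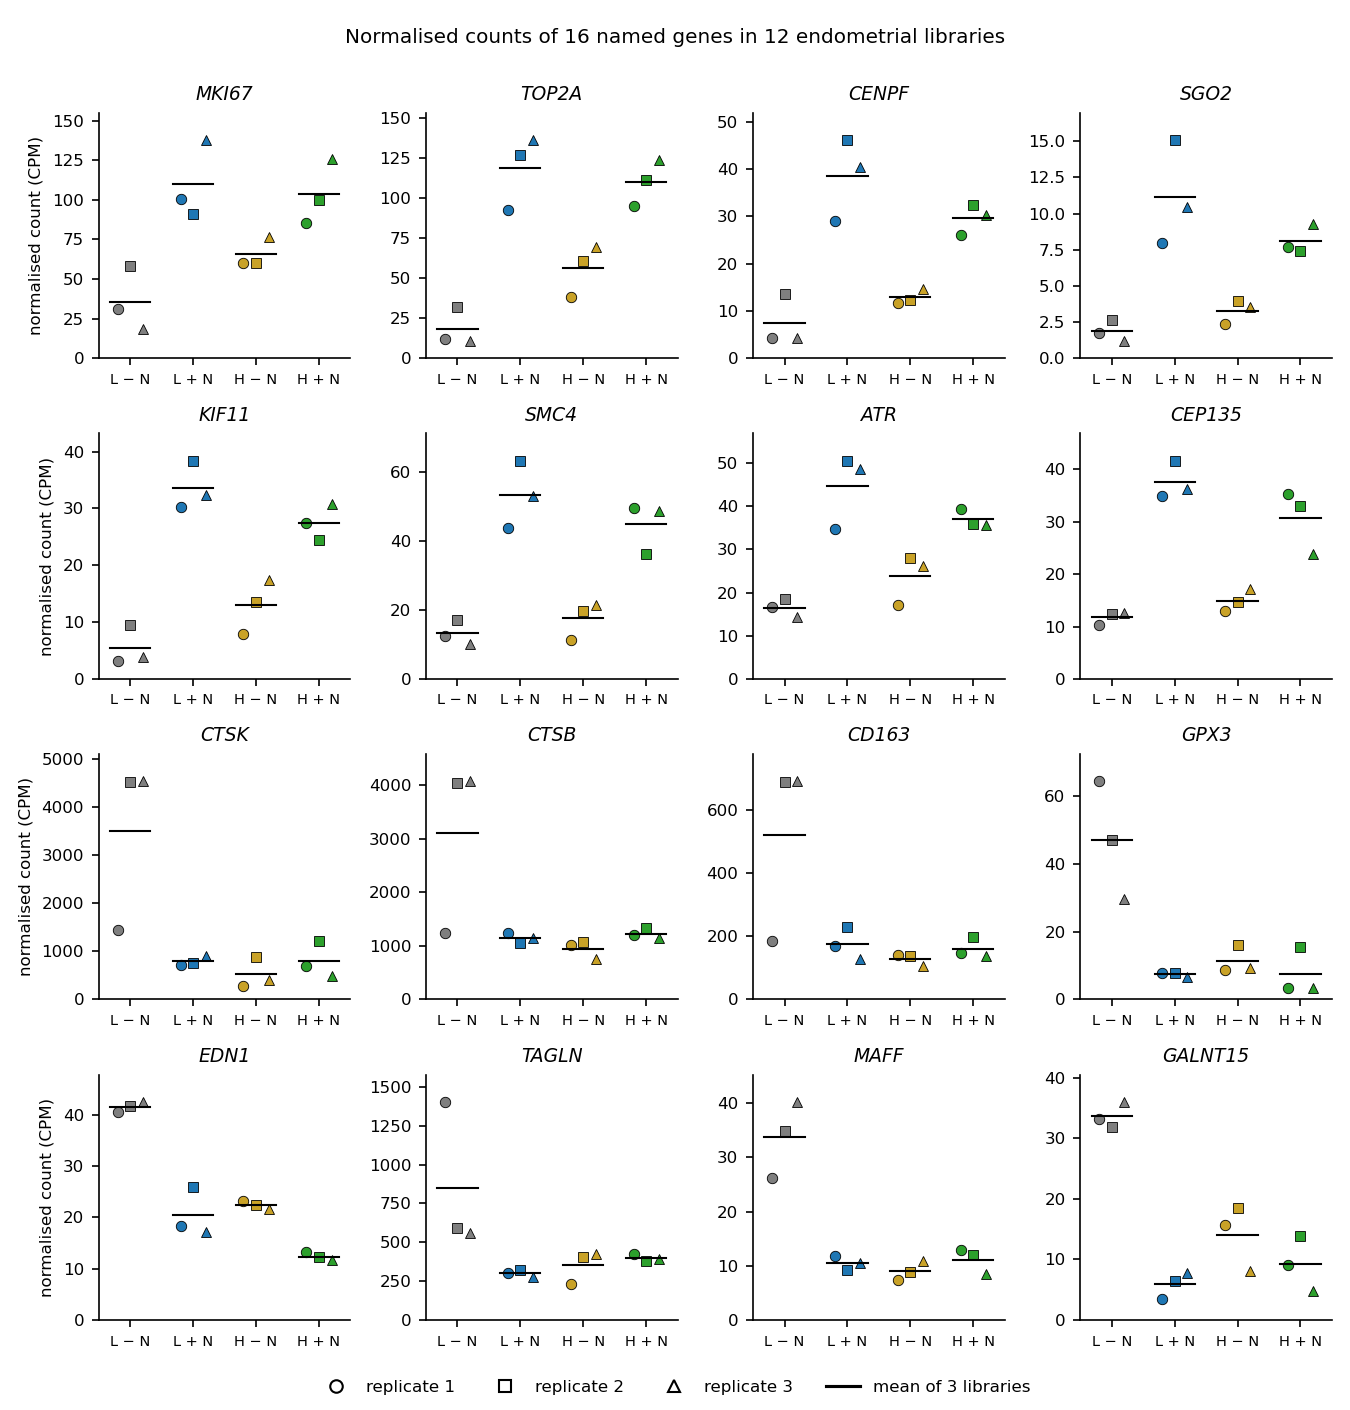
Normalised counts (y axis, CPM) of 16 named genes in the 4 diet groups (x axis), 1 point a library, with shapes for replicates 1 to 3 and a bar at the mean of 3. The first 8 panels are division genes, where each L + N library lies above each L − N library. The other 8 are lower in L + N, and L − N replicate 1 lies near L + N for CD163 and CTSB.

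By the table's annotation, pathways of DNA repair and the cell cycle had the largest shares of genes called higher. Of 291 KEGG pathways with 20 to 500 genes tested, the 8 with the largest share of genes called higher were homologous recombination (6 of 39), the Fanconi anemia pathway (7 of 48), cell cycle (15 of 118), oocyte meiosis (11 of 103), p53 signaling (7 of 67), circadian rhythm (3 of 29), herpes simplex virus 1 infection (31 of 313) and progesterone-mediated oocyte maturation (8 of 82). Their median log2 fold changes ran from 0.01 in p53 signaling to 0.36 in homologous recombination, against −0.02 over all genes. Cell cycle also had 1 gene called lower, GADD45A, and p53 signaling had 4 lower, with GADD45A, CD82 and STEAP3 among them. Circadian rhythm had the nuclear receptors RORA and RORB and the clock protein PER3. Several of these pathways share genes: CCNB1, CCNB2 and CDK1 stand in cell cycle, oocyte meiosis, p53 signaling and progesterone-mediated oocyte maturation. In the order named, the 8 counts were 2, 3, 4, 1, 2, 1, 12 and 0 when L − N replicate 3 was left out, and for L + N replicate 2 they were 2, 3, 7, 2, 2, 1, 11 and 2. For L + N replicate 1 they were 4, 5, 12, 7, 4, 1, 23 and 5, and for L + N replicate 3 they were 4, 5, 10, 6, 2, 1, 25 and 3. The count of p53 signaling was 4 when L − N replicate 1 was left out, and circadian rhythm had 2 when L − N replicate 2 was.

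The herpes simplex virus 1 pathway of KEGG holds many zinc finger proteins. Of its 313 genes tested, 138 are named zinc finger proteins, of which 27 were called higher and 0 lower, with a median of 0.47. The other 175 genes had 4 called higher, 2 lower and a median of −0.02. Over the whole table, 318 genes tested are named zinc finger proteins, of which 41 were called higher and 0 lower, with a median of 0.25 and a median gene length of 5173.5 bp against 3730 bp over all genes. The split of the pathway was made after its values were seen.

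Among 1591 Gene Ontology processes with 10 to 500 genes tested, the 8 with the largest share called higher were kinetochore assembly (6 of 12, median 0.97), metaphase plate congression (4 of 10, median 1.22), mitotic chromosome condensation (5 of 13, median 0.90), male meiotic nuclear division (5 of 13, median 0.63, range 0.55 to 1.05), the mitotic spindle assembly checkpoint (6 of 18, median 0.73), sister chromatid cohesion (5 of 15, median 0.76), epithelial cilium movement (4 of 12, median 0.66, range 0.28 to 1.3) and centriole replication (6 of 20, median 0.54). In that order, the counts were 1, 2, 1, 1, 1, 2, 1 and 4 when L − N replicate 3 was left out, and for L + N replicate 2 they were 1, 2, 3, 1, 3, 2, 1 and 4. Male meiotic nuclear division had 2 without L − N replicate 1, L + N replicate 1 or L + N replicate 3. Kinetochore assembly had 3 without L + N replicate 3, mitotic chromosome condensation had 3 without the same library, and epithelial cilium movement had 2 without L + N replicate 1. Sister chromatid cohesion had 3 without L − N replicate 1, and metaphase plate congression had 6 and the spindle checkpoint 9 without L − N replicate 2.

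The genes with the largest fold changes were of other kinds. Among called genes that had a symbol, reached 1 CPM on average in L + N and did not overlap, the 12 highest log2 fold changes ran from 2.75 (TENM1) to 3.97 (SLITRK6). LGR5, the receptor of R-spondins and a marker of epithelial stem cells (gene 100151994, chromosome 5, 35463257 to 35595234), had 0.955, 2.01 and 1.28 in L − N and 23.1, 11.5 and 29.4 CPM in L + N (log2 FC 3.91 ± 0.74, adjusted p = 0.0127). It was the 1 gene called higher of 42 tested in the Wnt and R-spondin list, which had a median of 0.06 (−0.10 to 0.31) and 0 genes called in limma-voom. TSPAN8, a membrane tetraspanin whose annotated span overlaps that of LGR5 on the other strand, had 0.382, 0.815 and 0.470 in L − N and 3.30, 5.01 and 4.51 CPM in L + N (log2 FC 2.92 ± 0.41, adjusted p = 0.00818). Both were low in all of L − N and higher in all of L + N. NELL2, a secreted ligand of neurons, had 17.6, 14.6 and 8.06 in L − N and 147, 136 and 208 CPM in L + N (log2 FC 3.61 ± 0.62, adjusted p = 0.00899). COL23A1, a transmembrane collagen, had 11.1, 10.97 and 7.19 in L − N and 108, 53.8 and 161 CPM in L + N (log2 FC 3.46 ± 0.59, adjusted p = 0.00879). In both genes L + N replicate 3 was highest and L + N replicate 2 lowest of L + N, and the groups were far apart. BPI, a protein of neutrophils and epithelia that binds bacterial lipopolysaccharide, had 1.08, 0.941 and 0.806 in L − N and 9.17, 9.43 and 6.998 CPM in L + N (log2 FC 3.17 ± 0.48, adjusted p = 0.00818).

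Others of these 12 were low in L − N. SLITRK6, a neuronal transmembrane protein, had 0.764, 2.95 and 1.07 in L − N and 14.2, 20.2 and 41.1 CPM in L + N (log2 FC 3.97 ± 1.10, adjusted p = 0.0456). GSTA1, a glutathione transferase, had log2 FC 3.10 ± 0.61, adjusted p = 0.0139. RP1, a microtubule protein of photoreceptors, and CA8, a carbonic anhydrase homolog, were under 1.1 CPM in each L − N library (log2 FC 3.22 and 3.16), and RP1 lies within LOC100627466 on the same strand. KIAA1024L had 3 counts or fewer in each L − N library, and its mean in L + N was at least 6.87-fold higher than a floor of 3 counts per library. The calls of TSPAN8, BPI and TENM1 held without any 1 of the 6 libraries. LGR5, NELL2 and COL23A1 lost their calls without L − N replicate 3 (adjusted p 0.0512 to 0.0619). RP1 and GSTA1 lost their calls without L − N replicate 3 or L + N replicate 2 (adjusted p 0.0550 to 0.0709). CA8 lost the call without any 1 of the 5 libraries other than L − N replicate 1 (adjusted p 0.0538 to 0.165). KIAA1024L lost the call without any 1 of the 5 libraries other than L + N replicate 1 (adjusted p 0.0624 to 0.0971). SLITRK6 lost the call without any 1 of the 6 libraries (adjusted p 0.0693 to 0.156). In limma-voom LGR5, SLITRK6, CA8 and KIAA1024L were not called. CA8 and KIAA1024L were also not called in edgeR on the 6 libraries alone (adjusted p 0.0651 and 0.0516).

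The smallest adjusted p, 0.00818, was shared by many genes. By unadjusted p, the first 6 with a symbol among the higher genes were CEP135, ATM and BRCA1 with C16H5orf42, KPNA5 and LCA5. C16H5orf42, annotated as the ciliogenesis and planar polarity effector 1, had 19.4, 17.6 and 18.3 in L − N and 39.6, 41.7 and 40.2 CPM in L + N (log2 FC 1.14 ± 0.13, adjusted p = 0.00818). KPNA5, an importin that carries cargo into the nucleus (gene 397220, chromosome 1, 44900495 to 44941219), had 7.96, 7.84 and 7.66 in L − N and 26.7, 28.1 and 28.3 CPM in L + N (log2 FC 1.82 ± 0.23, adjusted p = 0.00818). Libraries within a group differed little in these genes, and all of L + N was above all of L − N. KPNA5 overlaps ZUFSP. The calls of C16H5orf42, KPNA5 and LCA5 held without any 1 of the 6 libraries. HOXA10 was the 1 gene called of 17 in the stroma marker list (1 higher, 0 lower, median 0.42, or 0.20 without L + N replicate 3), at log2 FC 1.60 ± 0.26, adjusted p = 0.00825, and its call also held in each of those 6 fits. That list had 2 called higher without L − N replicate 1 or L + N replicate 1, and 1 called lower without L − N replicate 1 or 3 or L + N replicate 2.

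Motile cilia beat on some epithelial cells of the uterus. Their list had 3 of 29 genes called higher and 0 lower, all 29 positive, and a median of 0.65. Limma-voom called 2 higher and DESeq2 on 12 libraries 6. Its summed level was 761, 228 and 478 in L − N and 901, 841 and 672 CPM in L + N, and its most abundant gene was the ciliary regulator FOXJ1. L − N replicate 2 was lowest, and L − N replicate 1 lay within the range of L + N. CCDC39, a ruler of the axoneme, had 0.637, 0.564 and 0.672 in L − N and 2.23, 5.41 and 2.42 CPM in L + N (log2 FC 2.41 ± 0.50, adjusted p = 0.0165). DNAH12, a dynein heavy chain, had 5.79, 2.19 and 4.57 in L − N and 16.5, 18.7 and 13.3 CPM in L + N (log2 FC 1.95 ± 0.55, adjusted p = 0.0483). SPEF2, of the axoneme's central pair, had 15.9, 9.22 and 14.6 in L − N and 28.001, 32.8 and 25.96 CPM in L + N (log2 FC 1.12 ± 0.30, adjusted p = 0.0405). Each was higher in every L + N library. CCDC39 lost the call without L − N replicate 3 or L + N replicate 2 (adjusted p 0.0652 to 0.0657). DNAH12 and SPEF2 lost their calls without any 1 of the 5 libraries other than L − N replicate 1 (adjusted p 0.0764 to 0.135). DNAH12 was not called in limma-voom either. The list had 7 called higher and a median of 1.2 without L − N replicate 1, 1 called and a median of 0.32 without L − N replicate 2, 1 called without L + N replicate 1 or 3, and 0 without L − N replicate 3 or L + N replicate 2. CCDC39 overlaps TTC14. The part of ciliated cells in the higher genes was not tested.

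Lysosomal genes were among those called lower. The KEGG lysosome pathway had 7 of 119 genes called lower and 0 higher, and a median of −0.44 with 98 genes negative. Limma-voom called 3 genes of the pathway and DESeq2 on 12 libraries 10, and the median was −0.29 without L − N replicate 2. CTSK, a collagen-degrading cathepsin (gene 397569, chromosome 4, 98389459 to 98404969), had 1437, 4528 and 4536 in L − N and 717, 765 and 902 CPM in L + N. L + N was lower in every library, and L − N replicate 1 was far below the other 2 libraries of L − N (log2 FC −2.14 ± 0.51, adjusted p = 0.0268). CTSB, another lysosomal protease (gene 100037961, chromosome 14, 15014139 to 15035081), had 1239.7, 4031 and 4071 in L − N and 1231, 1059.8 and 1140.0 CPM in L + N. The groups met at L − N replicate 1, which was just above the highest of L + N (log2 FC −1.45 ± 0.35, adjusted p = 0.0280). CTNS, the lysosomal exporter of cystine (gene 100515235, chromosome 12, 49730741 to 49754362), had 44.8, 67.5 and 69.3 in L − N and 26.6, 23.5 and 21.9 CPM in L + N (log2 FC −1.33 ± 0.19, adjusted p = 0.00818). ACP5, the iron-binding acid phosphatase known in the pig as uteroferrin, a carrier of iron to the fetus (gene 397414, chromosome 2, 70206159 to 70209855), had 139, 469 and 441 in L − N and 145, 101 and 143 CPM in L + N (log2 FC −1.44 ± 0.38, adjusted p = 0.0400). For ACP5 the groups overlapped, since L − N replicate 1 was below L + N replicates 1 and 3. The call of CTNS held without any 1 of the 6 libraries. CTSK, CTSB and ACP5 lost their calls without any 1 of the 5 libraries other than L − N replicate 1 (adjusted p 0.0683 to 0.145). In limma-voom CTSB and ACP5 were not called, nor were they in edgeR on the 6 libraries alone. CTSK overlaps ARNT, and CTNS overlaps SHPK and TAX1BP3. The pathway count of 7 was 25 with L − N replicate 1 left out, 1 with L − N replicate 3 left out, and 2 with L − N replicate 2 or any library of L + N left out.

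The uterine secretory proteins, on which the fetus feeds, had 2 of 19 genes called lower, CTSB and ACP5, 0 higher, and a median of −0.16. The count stayed at 2 without L − N replicate 1 and was 0 without any other of the 6 libraries. Limma-voom called 0 of the list, and DESeq2 called 3 lower on 12 libraries and 4 on 6. The median was −0.34 without L − N replicate 3.

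Macrophage markers had low sums in L + N and in L − N replicate 1. All 15 genes of that list were negative, with 2 called lower, 0 higher and a median of −0.93. The summed level was 1689, 5859 and 4749 in L − N and 2270.3, 1989 and 1371 CPM in L + N, so L − N replicate 1 was within the range of L + N. The most abundant gene was LYZ, lysozyme, and no marker was at 0. CD163, the scavenger receptor for hemoglobin on macrophages (gene 397031, chromosome 5, 63300200 to 63334497), had 186, 690.3 and 692 in L − N and 169, 229.8 and 127 CPM in L + N (log2 FC −1.57 ± 0.41, adjusted p = 0.0364). CD14, the co-receptor for lipopolysaccharide, had 22.7, 40.8 and 49.03 in L − N and 15.3, 14.1 and 12.6 CPM in L + N (log2 FC −1.42 ± 0.26, adjusted p = 0.0115). CD14 did not overlap between groups, and CD163 did. CD14 lost the call without L − N replicate 3 or L + N replicate 2 (adjusted p 0.0531 to 0.0543). CD163 lost the call without any 1 of the 5 libraries other than L − N replicate 1 (adjusted p 0.0748 to 0.133). CD163 was not called in limma-voom or in edgeR on the 6 libraries alone. Limma-voom called 1 gene of the list and DESeq2 on 12 libraries 4, all lower. When L − N replicate 1 was left out, 10 of the 15 were called lower with a median of −1.13. The count was 0 when L − N replicate 3 was left out, and 1 for any of the other 4 libraries. Lysosomal genes are also highly expressed by macrophages, and the part of these cells in the lower genes was not tested.

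Smooth muscle markers moved with L − N replicate 1 in the other direction. Of 14 genes, 13 were negative, 2 were called lower and 0 higher, and the median was −1.12. The summed level was 6695, 2061 and 2649 in L − N and 1605, 1749 and 1470.0 CPM in L + N, with ACTA2, smooth muscle actin, the most abundant gene and no marker at 0. TAGLN, an actin-binding protein of smooth muscle (gene 397021, chromosome 9, 44561756 to 44567385), had 1403, 589.5 and 560.3 in L − N and 306, 319.7 and 275 CPM in L + N (log2 FC −1.50 ± 0.33, adjusted p = 0.0203). ACTA2 had 1918, 578 and 672 in L − N and 294, 364 and 278 CPM in L + N (log2 FC −1.76 ± 0.45, adjusted p = 0.0329). In both, L − N replicate 1 was highest, and L − N replicates 2 and 3 were still above L + N. TAGLN lost the call without L − N replicate 1 or any library of L + N (adjusted p 0.0636 to 0.0745, or log2 FC −0.94 without L − N replicate 1). ACTA2 lost the call without any 1 of the 5 libraries other than L − N replicate 2 (adjusted p 0.0580 to 0.107). Its log2 FC was −1 without L − N replicate 1. In edgeR on the 6 libraries alone neither was called. Limma-voom called 2 genes of the list lower and DESeq2 on 12 libraries 7. The list's median was −0.30 with 0 called by edgeR when L − N replicate 1 was left out, and −1.52 with 7 called lower when L − N replicate 2 was. The number was 1 for L − N replicate 3 and 0 for any library of L + N. The amount of muscle in the samples, and its part in the lower genes, was not tested.

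**Figure D3:**
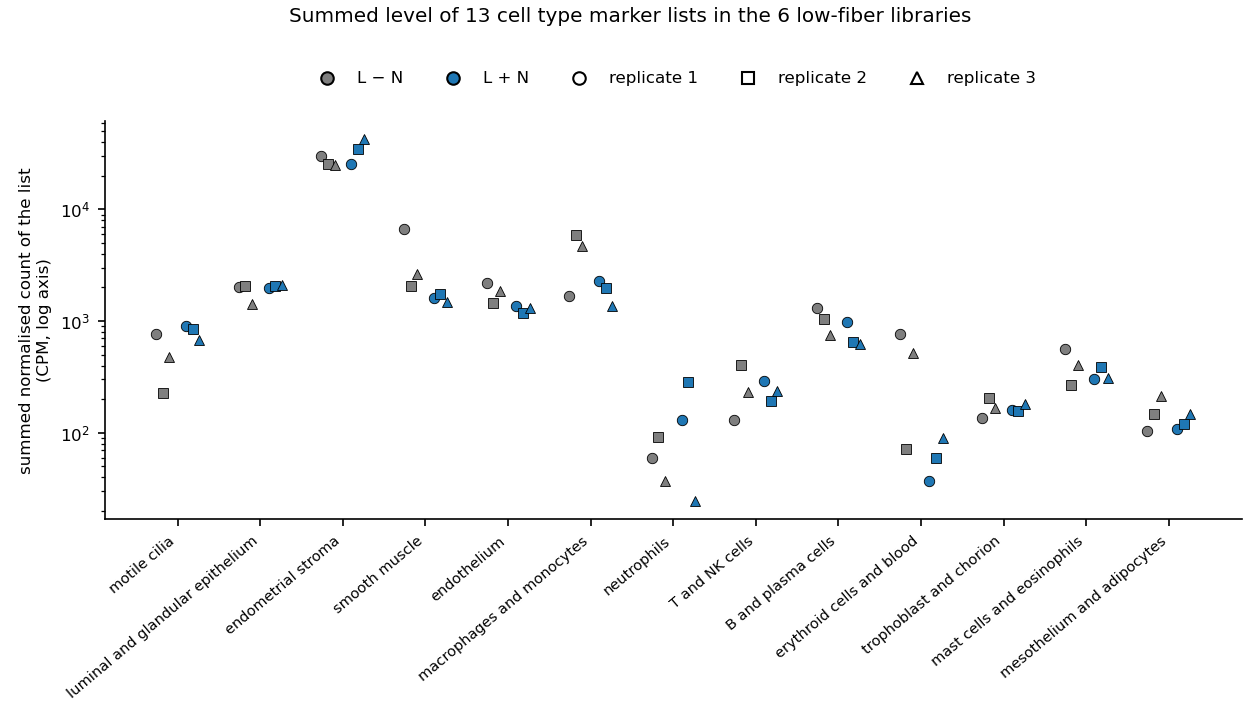
Summed level of 13 cell type marker lists (y axis, CPM, log scale) in the 6 low-fiber libraries, grey for L − N and blue for L + N. Shapes mark replicates 1 to 3, and the sums hold all list genes in the table, tested or not. L − N replicate 1 is highest for smooth muscle at 6695 CPM and lowest of L − N for macrophages at 1689 CPM. Epithelial sums lie between 1425 and 2086 CPM.

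In the lists of blood and of vessels, 1 gene each was called. Of the erythroid list, 5 of 13 genes in the table were tested, all negative, with 1 called lower and a median of −3.04, or −2.56 with AHSP at its bound. The summed level of the 13 was 765, 72.1 and 523 in L − N and 36.98, 59.9 and 89.8 CPM in L + N. Almost all of it was HBB, the beta globin, with HBZ, SLC4A1 and KLF1 at 3 counts or fewer. L − N replicates 1 and 3 were high and L − N replicate 2 lay within the range of L + N. AHSP, the chaperone of alpha globin, had 1.66, 0.188 and 1.21 in L − N and 0, 0 and 0.0654 CPM in L + N, which is at least 5.91-fold lower in L + N against the floor of 3 counts per library (adjusted p = 0.0165 in edgeR). AHSP lost the call without L − N replicate 3 or L + N replicate 1 or 2 (adjusted p 0.0595 to 0.0716). The list had 3 called lower without L − N replicate 2 and 0 without the libraries that end the call of AHSP. The part of retained blood was not tested. The endothelial list had 1 of 15 genes called lower, 0 higher, and a median of −0.45, with sums of 2208, 1465 and 1875 in L − N and 1360.1, 1177 and 1309 CPM in L + N and PECAM1 as its most abundant gene. PECAM1, an adhesion protein of endothelial junctions, had 462, 340.2 and 403 in L − N and 213, 170.2 and 184 CPM in L + N, with the groups apart (log2 FC −1.09 ± 0.20, adjusted p = 0.0110). PECAM1 lost the call without L − N replicate 1 or L + N replicate 2 (adjusted p = 0.0555, or log2 FC −0.97 without L − N replicate 1). DESeq2 on 12 libraries gave AHSP no adjusted p and called 2 other genes lower in the erythroid list and 3 in the endothelial list. The endothelial median was −0.28 when L − N replicate 1 was left out.

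Vasoactive peptides had 2 of 18 genes called lower, 0 higher, and a median of −0.33. EDN1, the vasoconstrictor endothelin 1 (gene 396915, chromosome 7, 8752018 to 8758354), had 40.5, 41.8 and 42.5 in L − N and 18.2, 26.03 and 17.1 CPM in L + N. L − N was nearly uniform and all of L + N lay below it (log2 FC −1.02 ± 0.16, adjusted p = 0.00818). ADM, the vasodilator adrenomedullin, had 19.7, 57.3 and 39.6 in L − N and 9.32, 9.90 and 11.3 CPM in L + N (log2 FC −1.93 ± 0.41, adjusted p = 0.0183). It was lower in every L + N library, and L − N replicate 1 was lowest of L − N. EDN1 lost the call without L + N replicate 1 or 3 (log2 FC −0.89 to −0.93). ADM lost the call without any 1 of the 5 libraries other than L − N replicate 1 (adjusted p 0.0518 to 0.0719). The count of 2 was 1 with L − N replicate 2 or 3 or L + N replicate 2 left out, and 0 with L + N replicate 1 or 3 left out.

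Antioxidant enzymes had 2 of 31 genes called lower, 0 higher, and a median of −0.36 with 25 negative. GPX3, the secreted glutathione peroxidase (gene 396598, chromosome 16, 71980467 to 71989011), had 64.4, 46.96 and 29.8 in L − N and 7.86, 7.92 and 6.74 CPM in L + N. Its lowest L − N library was above 3 times the highest of L + N (log2 FC −2.65 ± 0.55, adjusted p = 0.0167). SOD3, the extracellular superoxide dismutase, had 123, 57.4 and 66.9 in L − N and 39.99, 25.3 and 31.1 CPM in L + N (log2 FC −1.36 ± 0.38, adjusted p = 0.0486). The groups did not overlap, and L − N replicate 1 stood high. SOD1, the cytosolic form, passed the adjusted p and not the fold threshold (log2 FC −0.49 ± 0.12, adjusted p = 0.0267), and catalase, CAT, did not pass (log2 FC −0.26 ± 0.19, adjusted p = 0.415). GPX3 lost the call without any library of L + N (adjusted p 0.0551 to 0.0689). SOD3 lost the call without any 1 of the 6 libraries (adjusted p 0.0502 to 0.166). The count of 2 was 3 with L − N replicate 1 left out, 1 with L − N replicate 2 or 3 left out, and 0 with any library of L + N left out.

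Matrix proteases and their inhibitors had 2 of 31 genes called higher and 3 lower, with a median of −0.58, or −0.32 without L − N replicate 1. MMP14, a membrane-bound protease of collagen (gene 397471, chromosome 7, 76174502 to 76185931), had 1682, 4769.6 and 4757 in L − N and 1250.0, 1199 and 1543 CPM in L + N (log2 FC −1.49 ± 0.34, adjusted p = 0.0232). TIMP2, an inhibitor that also helps MMP14 to activate MMP2, had 1240.0, 1347 and 1733 in L − N and 615, 654 and 708 CPM in L + N (log2 FC −1.13 ± 0.29, adjusted p = 0.0358). Both were below L − N in each L + N library, and L − N replicate 1 was the lowest of L − N in both. ADAMTS9, which cleaves proteoglycans, had 101, 87.2 and 75.4 in L − N and 143, 190.1 and 248 CPM in L + N (log2 FC 1.14 ± 0.29, adjusted p = 0.0352). MMP16, another membrane-bound protease, had log2 FC 1.03 ± 0.27, adjusted p = 0.0368. Both were higher in all of L + N. ADAMTS9 lost the call without L − N replicate 2 or 3 or L + N replicate 2 or 3 (adjusted p 0.0862 to 0.134). MMP14 and TIMP2 lost their calls without any 1 of the 5 libraries other than L − N replicate 1 (adjusted p 0.0559 to 0.131). MMP16 lost the call without any 1 of the 6 libraries (adjusted p 0.0554 to 0.132). MMP16 was not called in limma-voom, nor MMP14 in edgeR on the 6 libraries alone. The counts were 2 higher and 6 lower with L − N replicate 1 left out, 0 and 1 with L − N replicate 2 left out, 1 and 0 with L + N replicate 1 left out, and 0 of both for any 1 of the other 3. TIMP2 overlaps CEP295NL. Collagen chains and their processing had 0 of 38 genes called in either direction by edgeR and a median of 0.05 (−0.05 to 0.16), with COL3A1 the most abundant at a mean of 2149.9 ± 324 FPKM in L − N and 3343 ± 933 FPKM in L + N (SD, n = 3 a group). LOXL2 was called lower in that list when L − N replicate 1 was left out, and COL8A1 when L − N replicate 2 was.

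Among called genes with a symbol, at least 1 CPM on average in L − N and no overlap, the 12 lowest fitted log2 fold changes reached up to −2.09 (CTHRC1) and included GPX3, CTSK and AHSP, for which the floor gives a bound alone. GALNT15, an enzyme that starts O-glycans (gene 100157572, chromosome 13, 3329824 to 3371094), had 33.2, 31.9 and 36.001 in L − N and 3.49, 6.40 and 7.78 CPM in L + N (log2 FC −2.52 ± 0.42, adjusted p = 0.00858). CTHRC1, a secreted protein of matrix remodeling, had 12.5, 35.9 and 17.5 in L − N and 5.34, 5.65 and 4.45 CPM in L + N (log2 FC −2.09 ± 0.38, adjusted p = 0.0110). GALNT15 was alike in the 3 libraries of L − N, and CTHRC1 was highest in L − N replicate 2. UCHL1, a deubiquitinase, had 9.93, 53.3 and 32.4 in L − N and 3.40, 7.57 and 6.28 CPM in L + N (log2 FC −2.47 ± 0.56, adjusted p = 0.0219). MLANA, a protein of pigment cells, had 0.382, 6.83 and 5.78 in L − N and 0.194, 0.116 and 0.327 CPM in L + N (log2 FC −4.32 ± 1.20, adjusted p = 0.0457). In both, L − N replicate 1 was nearest to L + N. Of the others, the pigment cell receptor GPR143, the muscle myosin MYH2, the glutamate receptor GRM4 and FRMD1, had log2 FC −2.93, −3.91, −2.64 and −2.53. The calls of GALNT15 and CTHRC1 held without any 1 of the 6 libraries. GPR143 lost the call without L − N replicate 3 or L + N replicate 1 or 2 (adjusted p 0.0588 to 0.0748). MLANA, MYH2, GRM4, UCHL1 and FRMD1 lost their calls without any 1 of the 5 libraries other than L − N replicate 1 (adjusted p 0.0582 to 0.158). In limma-voom MLANA, MYH2 and UCHL1 were not called. MLANA and MYH2 were also not called in edgeR on the 6 libraries alone (adjusted p 0.0509 and 0.0515). GRM4 was not called in edgeR with no filter on low counts (adjusted p = 0.0577), and DESeq2 on 12 libraries gave it no adjusted p.

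The same adjusted p was the smallest among the lower genes and was again shared. By unadjusted p, the first 6 of them with a symbol were C1QTNF5, MAFF, NBL1, CST3, RIN2 and CTNS. MAFF, a small transcription factor that is induced by stress (gene 100156484, chromosome 5, 9683651 to 9696128), had 26.2, 34.9 and 40.2 in L − N and 11.9, 9.20 and 10.5 CPM in L + N (log2 FC −1.68 ± 0.23, adjusted p = 0.00818). C1QTNF5, a secreted C1q-like protein, had 54.3, 56.4 and 72.2 in L − N and 21.01, 18.4 and 24.9 CPM in L + N (log2 FC −1.51 ± 0.20, adjusted p = 0.00818). Every L + N library was below every L − N library in these. CST3, cystatin C, the inhibitor of cathepsins, had 923, 1186 and 1159 in L − N and 553, 569.6 and 508 CPM in L + N (adjusted p = 0.00818). It was lower in all of L + N and at the fold threshold. The calls of C1QTNF5, MAFF and NBL1 held without any 1 of the 6 libraries. RIN2 lost the call without L − N replicate 3 (log2 FC −0.95). The fold change of CST3 was under the threshold without L − N replicate 2 or L + N replicate 3 (log2 FC −0.94), L − N replicate 3 (−0.96) or L + N replicate 1. DKK3, a secreted protein related to Wnt inhibitors, was the 1 gene called lower in the Wnt list, at 135, 299 and 236 in L − N and 91.2, 105 and 119 CPM in L + N (log2 FC −1.09 ± 0.31, adjusted p = 0.0483). DKK3 lost the call without any 1 of the 5 libraries other than L − N replicate 1 (adjusted p 0.0918 to 0.150). Limma-voom called neither DKK3 nor CST3, which was at its fold threshold. The Wnt list had 5 genes called higher without L − N replicate 1.

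By annotation, the 5 KEGG pathways with the largest share called lower were p53 signaling (4 of 67), lysosome (7 of 119), thyroid cancer (2 of 34, GADD45A and RET), vascular smooth muscle contraction (6 of 109, with 2 higher) and rheumatoid arthritis (4 of 77). In either direction, limma-voom called 10, 3, 2, 7 and 1 genes of these pathways and DESeq2 on 12 libraries 13, 10, 2, 11 and 5. The median of the last was −0.37 and its 4 genes, ATP6V1F, CTSK, ACP5 and TLR2, act in lysosomes and innate immunity. Vascular smooth muscle contraction held MYL9, EDN1, ADM, ACTA2, MYH2 and PPP1R14A, with a median of −0.19. In the order named, these counts were 5, 25, 2, 6 and 5 when L − N replicate 1 was left out, 2, 2, 1, 6 and 0 for L − N replicate 2, and 1, 1, 0, 2 and 0 for L − N replicate 3. They were 2, 2, 1, 1 and 0 for L + N replicate 1, 0, 2, 0, 3 and 0 for L + N replicate 2, and 1, 2, 1, 1 and 1 for L + N replicate 3. The 5 Gene Ontology processes were positive regulation of heart rate (2 of 10, EDN1 and ADM), negative regulation of proteolysis (2 of 10, CST3 and CSTB), positive regulation of interleukin-8 production (2 of 11, CD14 and TLR2), toll-like receptor 4 signaling (2 of 12, CD14 and LY96) and hydrogen peroxide catabolism (2 of 12, GPX3 and LOC110259958). Each rests on 2 genes, and each had 0 called without at least 1 of the 6 libraries: L + N replicates 1 and 3 for heart rate, L − N replicates 2 and 3 and L + N replicate 3 for proteolysis, L − N replicate 3 and L + N replicate 2 for both innate immune terms, and any library of L + N for hydrogen peroxide.

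The list of the pathway on which NCG is known to act had no call. Of 19 genes tested for arginine, the urea cycle and nitric oxide, edgeR, limma-voom and DESeq2 each called 0 in either direction. In edgeR 4 of the 19 had an unadjusted p under 0.05, against 4260 of all 15351 genes. The median was −0.11 (−0.25 to −0.06), with 12 genes negative. NAGS, which makes N-acetylglutamate, had at most 3 counts in any of the 6 libraries, and CPS1 at most 5, so neither was tested and no difference in them was detectable at this depth. ASL, which releases arginine from argininosuccinate, had 16.2, 19.9 and 19.5 in L − N and 12.5, 13.3 and 10.5 CPM in L + N. It was lower in each L + N library and passed the adjusted p but not the fold threshold (log2 FC −0.61 ± 0.17, adjusted p = 0.0466), and it kept the first with L − N replicate 1 left out and with no other. ASS1, the enzyme before it, had 14.7, 7.84 and 12.1 in L − N and 11.5, 7.45 and 7.39 CPM in L + N (log2 FC −0.39 ± 0.46, adjusted p = 0.616). ARG1, the cytosolic arginase, had 1.66, 0.439 and 0.739 in L − N and 5.58, 0.873 and 0.523 CPM in L + N (log2 FC 1.31 ± 1.09, adjusted p = 0.464). ARG2, the mitochondrial arginase, had 24.6, 22.2 and 14.9 in L − N and 22.2, 25.2 and 20.9 CPM in L + N (log2 FC 0.14 ± 0.19, adjusted p = 0.654). These 3 overlapped between groups. The nitric oxide synthases did as well: NOS1 had 125, 18.7 and 45.6 in L − N and 62.2, 68.5 and 101 CPM in L + N (log2 FC 0.29 ± 0.55, adjusted p = 0.772). NOS2 had 4.84, 7.27 and 5.91 in L − N and 6.45, 4.83 and 5.82 CPM in L + N (log2 FC −0.07 ± 0.34, adjusted p = 0.912). NOS3, of endothelium, had 21.7, 13.6 and 13.6 in L − N and 15.6, 8.68 and 15.8 CPM in L + N (log2 FC −0.29 ± 0.31, adjusted p = 0.585). Single libraries moved these values: without L − N replicate 1, log2 FC was 1.27 for NOS1 (adjusted p = 0.0908), −0.03 for NOS3 and −0.18 for ASS1, without L − N replicate 2 it was −0.14 for NOS1, and NOS2, ARG1 and ARG2 also changed sign in some fit. GLUL, glutamine synthetase and the most abundant gene of the list, had a mean of 196 ± 4.87 FPKM in L − N and 138 ± 26.5 FPKM in L + N (SD, n = 3 a group) and did not pass (log2 FC −0.64 ± 0.20, adjusted p = 0.0691). In KEGG, arginine biosynthesis had 1 of 16 genes called higher, GLS2, a glutaminase, with 1 gene called also by limma-voom and DESeq2. GLS2 was not called without L − N replicate 2 or 3 or L + N replicate 2 or 3. Arginine and proline metabolism had 0 of 42 called by edgeR, limma-voom and DESeq2, with 5 at an unadjusted p under 0.05.

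Polyamine genes had 0 of 12 called and a median of −0.24, and amino acid transporters had 0 of 23 called and a median of −0.32 (−0.42 to −0.14), with 3 called lower when L − N replicate 1 was left out and 1 for L + N replicate 1. At an unadjusted p under 0.05 there were 2 and 7 in edgeR, and limma-voom and DESeq2 also called 0. ODC1, which makes the first polyamine, putrescine, had 67.04, 96.1 and 67.1 in L − N and 94.05, 93.8 and 90.9 CPM in L + N (log2 FC 0.28 ± 0.18, adjusted p = 0.354). SLC7A1, the main carrier of arginine into cells, had 48.1, 31.7 and 24.99 in L − N and 29.7, 39.01 and 42.4 CPM in L + N (log2 FC 0.08 ± 0.29, adjusted p = 0.883). Both overlapped between groups. Over the 6 fits the log2 FC of ODC1 ran from 0.19 to 0.47 and that of SLC7A1 from −0.11 to 0.38. SLC1A5, a carrier of glutamine, had 71.8, 132 and 123 in L − N and 52.9, 48.9 and 66.5 CPM in L + N, lower in each L + N library without passing (log2 FC −0.95 ± 0.31, adjusted p = 0.0739).

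The short lists of growth signaling had no call. In edgeR the larger KEGG pathways had a few, at shares near or below those of all genes. The mTORC1 list had 12 of 26 genes at an unadjusted p under 0.05 in edgeR, against 4260 of all 15351. It had 0 called by edgeR, limma-voom and DESeq2 and a median of −0.19 (−0.24 to −0.12). The list of PI3K and AKT had 0 of 23 called by the same tools, 7 at an unadjusted p under 0.05, and a median of −0.10 (−0.17 to −0.10). DDIT4, an inhibitor of mTORC1 that is induced by stress, had 127, 116 and 105 in L − N and 63.8, 74.1 and 63.5 CPM in L + N. All of L + N was lower, past the adjusted p but short of the fold threshold (log2 FC −0.79 ± 0.11, adjusted p = 0.00818). SESN3, a sestrin that restrains mTORC1, had 125, 131 and 147 in L − N and 237, 255 and 208 CPM in L + N and was likewise past the adjusted p alone (log2 FC 0.80 ± 0.20, adjusted p = 0.0320), but in none of the 6 fits with a library left out. MTOR itself had 88.4, 94.1 and 101 in L − N and 84.2, 83.3 and 83.6 CPM in L + N (log2 FC −0.17 ± 0.11, adjusted p = 0.321). AKT1, the kinase downstream of PI3K, had 133, 158 and 151 in L − N and 115, 104 and 125 CPM in L + N (log2 FC −0.37 ± 0.13, adjusted p = 0.101). PIK3CA, the catalytic subunit of PI3K, had 31.1, 45.2 and 48.02 in L − N and 66.7, 79.5 and 60.5 CPM in L + N (log2 FC 0.73 ± 0.26, adjusted p = 0.0934). The 2 groups did not overlap in AKT1, lower in L + N, or in PIK3CA, higher in L + N, and neither passed. AKT1 and PIK3CA each overlap an unnamed locus, LOC110258368 and LOC110256340. KEGG mTOR signaling had 1 higher (RICTOR, 0.704%) and 1 lower (ATP6V1F, 0.704%) of 142 genes and a median of −0.13. PI3K-Akt signaling had 5 higher (1.73%) and 2 lower (0.692%) of 289 and a median of −0.12. Of all genes tested, 3.32% were called higher and 0.671% lower. DESeq2 on 12 libraries called 4 genes of the mTOR pathway and 15 of PI3K-Akt signaling in either direction, and limma-voom 1 and 6. RICTOR was not called without L − N replicate 3 or any library of L + N, nor ATP6V1F without L − N replicate 2 or 3 or L + N replicate 1 or 2. When L − N replicates 1 to 3 and then L + N replicates 1 to 3 were left out in turn, PI3K-Akt signaling had 5, 4, 2, 4, 2 and 2 higher and 6, 1, 0, 1, 0 and 0 lower. The mTOR pathway had 4 higher and 2 lower without L − N replicate 1.

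Hormone receptors were mixed. The steroid list had 0 of 17 genes called by edgeR and a median of 0, with 1 called higher, ESR1, without L − N replicate 1 or L + N replicate 1. ESR1, the estrogen receptor alpha (gene 397435, chromosome 1, 14217032 to 14604906), had 523, 417 and 409.8 in L − N and 770.0, 855 and 1003 CPM in L + N. Every L + N library was above every L − N library, and the fold change was just short of the threshold (log2 FC 0.96 ± 0.22, adjusted p = 0.0217), with 1.08 (adjusted p = 0.0191) if L − N replicate 1 was left out and 1.06 (adjusted p = 0.0431) for L + N replicate 1. PGR, the progesterone receptor, had 26.4, 34.5 and 37.9 in L − N and 40.4, 34.2 and 57.9 CPM in L + N (log2 FC 0.42 ± 0.32, adjusted p = 0.422). OXTR, the oxytocin receptor, had 175, 239 and 185 in L − N and 125, 243 and 195 CPM in L + N (log2 FC −0.09 ± 0.39, adjusted p = 0.907). PGR and OXTR overlapped between groups, and OXTR changed sign without L − N replicate 2 or L + N replicate 1. With 1 library left out, the log2 FC of PGR ran from 0.2 to 0.58. The prostaglandin and oxytocin list had 0 of 18 called by edgeR, 1 lower by DESeq2, and a median of −0.18 (−0.25 to −0.03), with PTGES, which makes prostaglandin E2, at 26.9, 60.1 and 36.2 in L − N and 20.8, 16.8 and 19.9 CPM in L + N (log2 FC −1.10 ± 0.35, adjusted p = 0.0712) and called lower without L − N replicate 1.

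Further lists had no call in edgeR's test. Immediate early genes had 0 of 26 and a median of −0.36 (−0.44 to −0.19), 22 of them negative. Cholesterol synthesis had 0 of 24 and 0.08 (0.01 to 0.26), interferon-stimulated genes 0 of 31 and −0.03 (−0.40 to 0.35), and angiogenic ligands and receptors 0 of 30 and −0.22 (−0.22 to −0.10). VEGFA, the main growth factor of vessels, had 54.8, 45.8 and 44.5 in L − N and 95.2, 81.7 and 123 CPM in L + N. It was higher in all of L + N and missed the threshold (log2 FC 1.05 ± 0.31, adjusted p = 0.0559). Of the remaining marker lists, epithelium had 0 of 18 (median 0.11, range −0.02 to 0.28, sums 2015, 2073 and 1425 in L − N and 1976, 2081 and 2086 CPM in L + N), with 1 called higher without L − N replicate 1 or L + N replicate 1. T and NK cells had 0 of 21 (median −0.03, range −0.37 to 0.56, sums 131, 407 and 231 in L − N and 290.0, 191 and 236 CPM in L + N) with 1 called lower without L − N replicate 1, and B and plasma cells 0 of 15 (median −0.23, range −0.44 to −0.01, sums 1319, 1038 and 743 in L − N and 979.7, 653 and 629 CPM in L + N). Neutrophil markers had 0 of 11 and a median of 1.22 (0.76 to 1.84) on very low and uneven levels, 59.3, 91.4 and 36.9 in L − N and 131, 287 and 24.4 CPM in L + N. Trophoblast markers had 0 of 9 (median 0.65, or 0.22 without L − N replicate 1), mast cell and eosinophil markers 0 of 5 (median −0.25, range −0.44 to 0.06), and markers of mesothelium and fat 0 of 6 (median −1.24), with 1 called lower and a median of −0.47 without L − N replicate 1. Over the 19 lists with no call, 64 of 372 distinct genes tested had an unadjusted p under 0.05 in edgeR, against 4260 of 15351 genes, limma-voom called 0, and DESeq2 on the 12 libraries called 2 higher and 5 lower.

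Of other pathways, ribosome had 0 of 120 genes called by edgeR, limma-voom and DESeq2, 21 at an unadjusted p under 0.05, and a median of −0.18 (−0.24 to −0.04). Of all genes tested, 3.32% were called higher and 0.671% lower, and the shares of the next pathways are given beside their counts. Oxidative phosphorylation had 1 lower (ATP6V1F, 0.813%) of 123, a median of −0.27 and 101 negative. Limma-voom called 0 of them, and edgeR called 0 lower without L − N replicate 2 or 3 or L + N replicate 1 or 2. Complement and coagulation had 2 lower (F13A1 among them, 3.1%) of 64 and a median of −0.24. With L − N replicate 1 left out it had 11 lower, and with L + N replicate 1 left out 1. It had 0 lower without L − N replicate 3 or L + N replicate 2 or 3. ECM-receptor interaction had 4 higher (ITGB8, HMMR, FREM2, DMP1, 5.41%) and 1 lower (ITGB3, 1.35%) of 74 and a median of 0.05. It had 2 higher without L − N replicate 3 or L + N replicate 2 or 3. KEGG DNA replication had 2 higher (DNA2, POLE2, 5.88%) of 34 and a median of 0.21. It had 1 without L − N replicate 1 or any library of L + N and 0 without L − N replicate 3. DESeq2 on 12 libraries called 6 genes of complement and coagulation, 8 of ECM-receptor interaction and 4 of DNA replication, and limma-voom 1, 5 and 2.

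Called genes differed in structure from the rest. The genes called higher had a median gene length of 5809.5 bp, those called lower 2913 bp, and all genes tested 3730 bp. The median genomic spans were 54798, 18915 and 27239 bp. Across 10 equal groups by gene length, the median log2 FC went from −0.22 in the shortest (204 to 1358 bp) to 0.20 in the longest (9196 to 104486 bp). The number called higher went from 12 to 107 and the number called lower from 19 to 3. A trend of the same direction was present in H + N against H − N, from −0.08 to 0.14. The Spearman correlation of length with log2 fold change was 0.229 across genes, which are not independent replicates. With the trend on gene length taken out of each library, an alternative added after the data were seen, 536 genes were called, 417 higher and 119 lower, and 474 of them were among the 613. The 7 division lists then had 96 genes called higher and a median of 0.80. In that fit 75 of the 88 named calls were kept. ATM, C16H5orf42, HAUS6, EDN1 and CST3 were under the fold threshold, and TICRR, CLSPN, SOD3, DKK3, DNAH12, SPEF2, ADAMTS9 and MMP16 had an adjusted p above 0.05. The lists of the cilia and of the matrix proteases had 1 and 0 called higher, the matrix proteases 4 called lower, the vasoactive peptides and the antioxidant enzymes 1 lower each, and the Wnt list 0 lower. When each gene's fold change was taken against the median of its length group, the median went from −0.27 to −0.09 in oxidative phosphorylation, from −0.18 to 0.01 in ribosome, from −0.37 to −0.25 in rheumatoid arthritis and from −0.44 to −0.40 in lysosome.

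**Figure D4:**
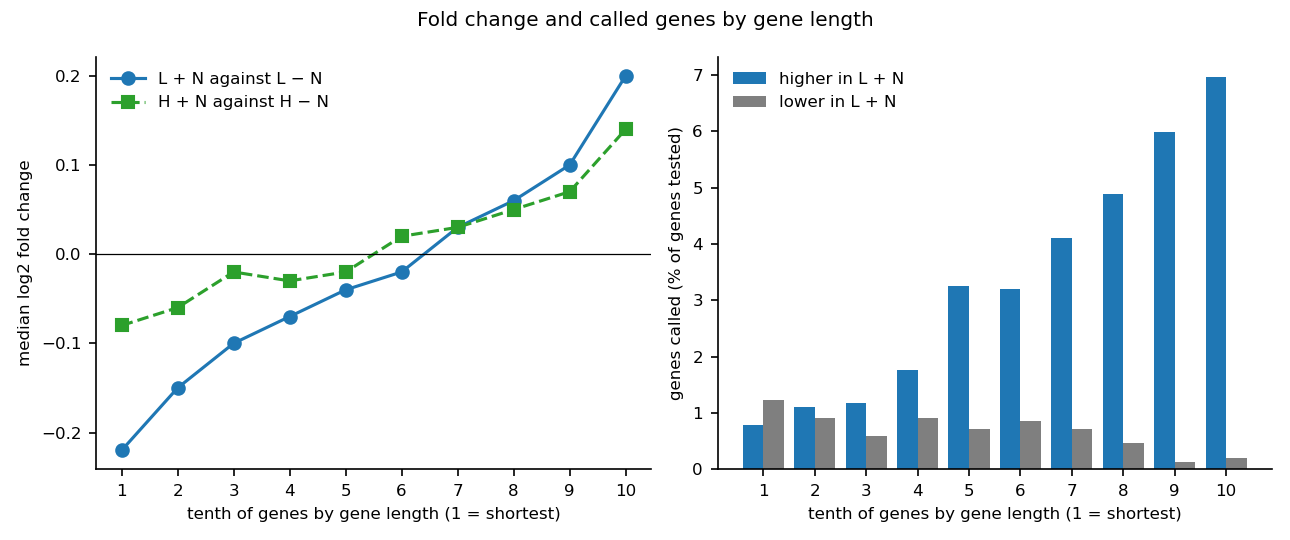
Left, median log2 fold change (y axis) in 10 equal groups of the genes tested ordered by gene length (x axis, 1 is shortest), for L + N against L − N in blue and H + N against H − N in green. Right, percent of the genes in each group called higher (blue) or lower (grey) in L + N. The blue line goes from −0.22 to 0.20, and the share called higher from 0.779% to 6.98%.

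By level in CPM, which is not divided by gene length, the genes called higher had a median of 14.4 CPM. Those called lower had 56.4 CPM and all genes 26.5 CPM. The median log2 fold change went from 0.29 in the lowest of 5 equal groups of genes by this level to −0.14 in the highest. Called genes came from all chromosomes with over 250 genes tested: chromosome 1 had the highest share called higher (75 of 1305) and chromosome 7 the highest share called lower (13 of 942). Of the 510 higher genes 122 overlap another annotated gene, as do 14 of the 103 lower and 3627 of all 15351.

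NCG on the high-fiber diet gave no call in edgeR or limma-voom. In H + N against H − N, whose 6 libraries are other than those above, edgeR called 0 of 15351 genes (0%) and limma-voom 0, while DESeq2 called 25. At an unadjusted p under 0.05 there were 1331 genes (8.67%). Of the 510 genes called higher on low fiber, 470 were positive on high fiber (92.2%), with a median log2 fold change of 0.59, and 256 had an unadjusted p under 0.05. Positive values made up 51.0% of all genes tested on high fiber. Of the 103 genes called lower on low fiber, 37 were negative on high fiber (35.9%), with a median of 0.11, and 10 had an unadjusted p under 0.05, 6 of them negative. Since these genes were chosen by their fold change on low fiber, a smaller median on high fiber is in part expected from the choice.

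Of single genes, TOP2A had 38.5, 61.03 and 69.4 in H − N and 94.9, 111 and 124 CPM in H + N, a log2 fold change of 0.97 (SE 0.37, adjusted p = 0.535). KIF11 had 7.88, 13.6 and 17.4 in H − N and 27.4, 24.5 and 30.7 CPM in H + N, or 1.09 (SE 0.37, adjusted p = 0.477). CEP135 had 12.95, 14.6 and 17.1 in H − N and 35.4, 32.97 and 23.9 CPM in H + N, or 1.05 (SE 0.18, adjusted p = 0.451). These were positive on both diets and did not pass on high fiber. CTSK had 282, 878 and 412 in H − N and 698, 1214 and 490.0 CPM in H + N, or 0.61 (SE 0.49, adjusted p = 0.756). CD163 had 142, 139 and 106 in H − N and 146, 197 and 138 CPM in H + N, or 0.32 (SE 0.40, adjusted p = 0.855). Both were far lower in H − N than in L − N replicates 2 and 3. The 7 division lists had a median of 0.42 on high fiber with 264 of 294 positive, and the lysosome pathway had a median of 0.06.

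The levels were also compared in all 4 groups. For the genes called higher, the median of the log2 level in L − N replicates 1 to 3, taken against each gene's mean of the 12 libraries, was −0.81, −0.48 and −0.76. It was 0.58, 0.83 and 0.66 in L + N, −0.48, 0.01 and 0.09 in H − N, and 0.58, 0.42 and 0.45 in H + N. For the genes called lower, it was 0.10, 0.83 and 0.94 in L − N, −0.57, −0.64 and −0.69 in L + N, −0.83, −0.59 and −0.73 in H − N, and −0.65, −0.49 and −0.75 in H + N. The lower genes were thus high in L − N replicates 2 and 3, near their mean in L − N replicate 1, and below it in the 9 other libraries. Since the genes were chosen by L + N against L − N, the levels in those 2 groups restate the choice.

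Whether NCG acted differently on the 2 diets was tested by the interaction of fiber and NCG. By edgeR 0 of 15351 genes were called (0%), with a smallest adjusted p of 0.182, 1967 genes (12.8%) had an unadjusted p under 0.05, limma-voom called 0 and DESeq2 called 184. When L − N replicate 1 was left out, edgeR called 346 genes, 85 with a larger and 261 with a smaller log2 fold change on low fiber, and it called 1 when H − N replicate 3 was. For CTSK the interaction was −2.75 (SE 0.71, adjusted p = 0.257), for TOP2A 1.73 (SE 0.52, adjusted p = 0.275) and for CEP135 0.63 (SE 0.25, adjusted p = 0.331).

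**Figure D5:**
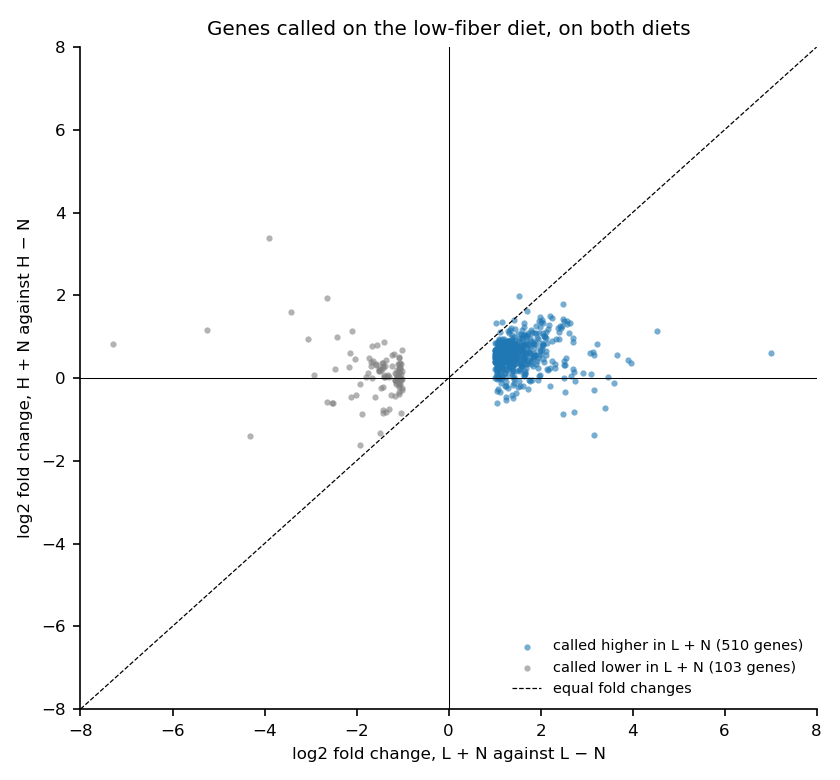
Log2 fold change of NCG on high fiber (y axis, H + N against H − N) against that on low fiber (x axis, L + N against L − N) for the 613 genes called on low fiber, 510 higher in blue and 103 lower in grey. The dashed line marks equal fold changes. Most blue points lie above 0 and below the dashed line (medians 1.38 on low and 0.59 on high fiber), and the grey points scatter about a median of 0.11.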

How the data were processed

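Per the labels, polyadenylated endometrial RNA was sequenced as paired ends, and reads were trimmed with fastp 0.22.0, aligned with HISAT2 2.1.0 to Sscrofa11.1 and counted per gene with HTSeq 0.9.1. The authors deposited 1 table of read counts and FPKM with KEGG and Gene Ontology annotation, and libraries are described as strand-specific, but not whether counting used the strand. FPKM recomputed from the counts, gene length and library total differed by at most 1.91e-05 percent. Of 20674 genes, 20663 had the same start and end in RefSeq. Libraries were assigned by column name. Counts of the 12 libraries were filtered by filterByExpr (15351 genes) and fitted with 4 diet groups in edgeR 4.0.16 (TMM, quasi-likelihood F-test, 8 residual degrees of freedom, biological coefficient of variation 0.269) under R 4.3.3, with two-sided p-values adjusted by Benjamini and Hochberg over all genes tested. Totals of the 6 low-fiber libraries ran from 14701681 to 19309724 counts, and floors of 3 counts cover counting error only. Alternatives were limma-voom 3.58.1, DESeq2 1.42.0 on 12 or 6 libraries, edgeR on 6 libraries, other size factors and filters, no fold threshold, a replicate block, each library left out, and length offsets, the last added after the data were seen. The code was tested on simulated data.

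Genes were named by a rule: the 12 highest and 12 lowest fold changes among called genes with a symbol, at least 1 CPM and no overlap of groups, the 6 smallest adjusted p in each direction (ties by unadjusted p), up to 5 called genes of each list in each direction, and a set of genes of arginine, growth and hormone signaling. Some genes that the rule picks are not reported here. Other genes were named after their values were seen. The members and the 38 lists were chosen with earlier results of these data known. The lists held 967 genes of the table, 915 of them tested.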

Additional observations from a re-analysis of the deposited data

How the results depend on the processing

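The count of genes called in L + N against L − N was 613, and it stayed within 1.5 times that number under the other size factors and filters, limma-voom, edgeR on 6 libraries, length offsets and DESeq2 on 12 libraries (883). It was 923 with DESeq2 on 6 libraries, 1474 with no fold threshold and 143 to 904 with 1 library left out, a range set by L − N replicates 3 and 1. The number higher was 916 with no fold threshold and 122 to 577 with 1 library left out. The number lower was 211 and 213 with DESeq2 on 12 and 6 libraries, 558 with no fold threshold and 21 to 327 with 1 library left out. The interaction had 184 genes with DESeq2 and 0 to 346 with 1 library left out, and H + N against H − N had 25 with DESeq2. With the replicate number as a block, 535 genes were called, but the numbers pair no animals: correlations of same-number libraries were −0.079, −0.057 and −0.054. Of 88 called genes that were named, 38 were still called with L − N replicate 3 left out, 49 for L + N replicate 2 and 76 for L − N replicate 1, and 0 changed sign in any alternative. Of the 88, 16 lost the call with edgeR on 6 libraries, 14 with limma-voom, 13 with the replicate block and 13 with length offsets. Promoter motifs were not run. Apart from the fewer libraries or the absent threshold, the cause of these shifts was not tested. Depth limits genes near the floor, such as KIAA1024L and AHSP.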
